A study of Homo sapiens with 8 samples.

Results

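Chromatin accessibility in U-937 cells treated with all-trans retinoic acid (ATRA) alone was compared with that in cells given only DMSO, the vehicle. The members are the regions of open chromatin that were called in at least 1 of these 2 groups: the ATRA and DMSO peak lists were overlaid, and peaks that overlapped by at least 1 bp were merged on chromosomes 1 to 22, X and Y. This gave 141454 regions, of 161291 regions over all 4 groups of the series. A region found only with ATRA is called gained, one found only with DMSO lost, and one found in both shared.

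U-937 is an established human monocytic leukaemia cell line. ATAC-seq uses a transposase that inserts adapters into accessible DNA, and it was done after 24 h in 4 groups of 2 samples, 8 in all. The groups were DMSO alone, ATRA at 0.1 µM, Corin at 0.1 µM, and ATRA at 0.1 µM with Corin at 0.1 µM, called the combination here. Corin inhibits the demethylase and deacetylase activities of the CoREST co-repressor complex. All groups are the same cell line, and the labels do not say whether the samples of a group were separate cultures. The deposited files used here hold 1 peak list per group, so that no value below has a spread between samples, no difference could be tested, and all counts and folds are descriptions of these lists.

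ATRA binds the retinoic acid receptors (RARA, RARB and RARG). With their RXR partners these receptors sit on direct repeats of a short half-site, hold co-repressors without ligand, and exchange them for co-activators when the ligand binds. In myeloid cells retinoic acid is known for pushing leukaemic blasts towards granulocytes or monocytes. PU.1 is an ETS factor that opens myeloid enhancers, often together with IRF and C/EBP proteins, and AP-1 is the family of FOS and JUN dimers that binds many enhancers of stimulated cells.

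The sequences below come from some of the most changed regions. Each was chosen to hold the motif it displays, so the windows illustrate the motifs and cannot show a contrast between the classes. They are windows of 120 bp centred on the summit of the stronger list, on the plus strand of hg38, with the searched motif in capitals, and were the first 2 of each class by strength or shift that hold the motif near the summit and lie outside annotated untranslated exons. In the gained and raised windows the capitals mark the PU.1 motif GAGGAAGT or its complement.
TMIE, gained, chr3:46700018-46700137: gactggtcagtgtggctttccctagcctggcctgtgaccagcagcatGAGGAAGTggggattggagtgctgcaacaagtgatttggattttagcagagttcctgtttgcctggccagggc
COL15A1, gained, chr9:98922997-98923116: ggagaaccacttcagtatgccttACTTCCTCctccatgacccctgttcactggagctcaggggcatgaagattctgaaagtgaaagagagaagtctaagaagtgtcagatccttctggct
DENND2B, raised, chr11:8705263-8705382: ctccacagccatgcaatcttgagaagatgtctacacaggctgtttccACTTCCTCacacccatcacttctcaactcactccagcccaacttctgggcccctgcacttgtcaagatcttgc
ALDH1A2, raised, chr15:58088016-58088135: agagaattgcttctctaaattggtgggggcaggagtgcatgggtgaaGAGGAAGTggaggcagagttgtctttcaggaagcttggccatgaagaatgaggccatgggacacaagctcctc
In the lowered and lost windows the capitals mark the AP-1 motif TGANTCA, which reads the same way on both strands.
SGCE, lowered, chr7:94620804-94620923: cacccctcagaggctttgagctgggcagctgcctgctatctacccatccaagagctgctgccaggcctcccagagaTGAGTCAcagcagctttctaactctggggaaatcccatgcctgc
MLXIPL, lowered, chr7:73636447-73636566: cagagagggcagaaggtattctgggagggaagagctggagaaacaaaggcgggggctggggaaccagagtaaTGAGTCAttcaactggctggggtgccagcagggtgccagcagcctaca
MAD1L1, lost, chr7:2214795-2214914: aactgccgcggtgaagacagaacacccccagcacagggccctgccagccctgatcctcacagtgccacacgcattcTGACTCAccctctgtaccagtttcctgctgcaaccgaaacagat
LCP2, lost, chr5:170306483-170306602: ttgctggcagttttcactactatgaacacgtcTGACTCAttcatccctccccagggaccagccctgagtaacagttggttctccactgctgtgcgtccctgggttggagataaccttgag
Each name is the protein-coding gene whose start is nearest, which need not be the gene the region acts on.

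Most of the open chromatin was common to both groups. Of the 141454 regions, 85659 (60.6%) were shared, 26347 were gained and 29448 were lost. The gained regions were 23.5% of the 112006 regions that the ATRA list reached (95% Wilson interval 23.3 to 23.8), and the lost ones 25.6% of the 115107 reached by the DMSO list (25.3 to 25.8). Gained and lost regions were weak. The median fold of a gained peak over its local background was 4.05, that of a lost one 2.48, against 9.94 and 7.05 for shared regions in the ATRA and the DMSO list. Only 15 gained and 6 lost regions ranked in the strongest 20% of their list by −log10 p. With a limit of 5 on −log10 q the gained regions numbered 25619 and the lost ones 17910.

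The fold is the authors' value: the pileup of reads at the summit over the local background, as the peak caller wrote it. Its level differed between the lists, with a median log2 ratio of ATRA over DMSO of 0.33 at shared regions, and every shift below was centred on that median. A shared region is called raised where its fold was at least 2-fold higher with ATRA after centring, and lowered where it was at least 2-fold lower. The middle 50% of shared regions lay between shifts of -0.28 and 0.38 (log2), and the middle 90% between -0.76 and 1.14. By this rule 5981 shared regions were raised (6.98%, 6.81 to 7.15) and 2028 lowered (2.37%, 2.27 to 2.47), so that 74.7% of the moved regions were raised. This split depended on the scale. It was 94.1% without centring, 85.2% when centred on promoters and 55.7% for the pileup itself, recovered from p and fold, which gave 7006 raised and 5571 lowered regions. Without regions whose background was 2 or more times the most frequent one, 3523 of 42499 shared regions were raised (8.29%) and 2046 lowered (4.81%).

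**Figure D1:**
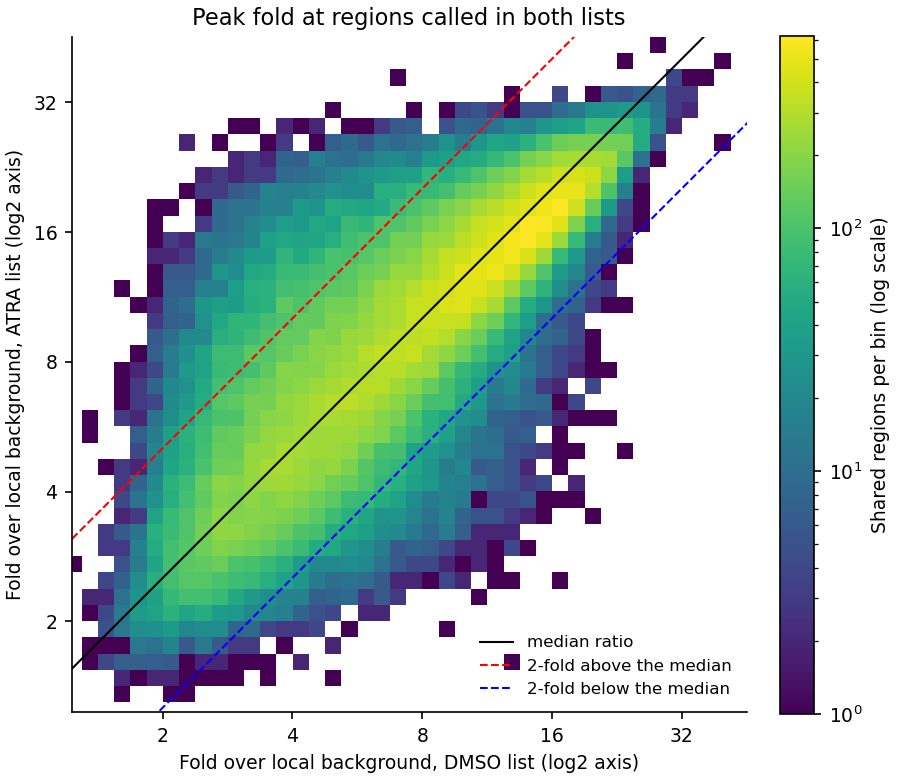
Fold over local background of each region called with both DMSO (horizontal) and ATRA (vertical), on log2 axes, coloured by the number of shared regions per bin. The solid line is the median ratio and the dashed lines lie 2-fold above and below it, with 5981 regions past the upper and 2028 past the lower one.

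The raised regions were faint in DMSO and ordinary in ATRA. Their median fold was 3.81 with DMSO and 12.9 with ATRA, while the lowered ones had 7.81 and 3.85. Among the strongest 20% of the list in which they were higher, 549 regions were raised and 280 lowered. The pileup, which is solved from the same fold and p and is no separate measurement, moved in the same direction at 5952 of the 5981 raised and 2004 of the 2028 lowered regions. Its shift was also at least 2-fold at 4204 of the raised and 1759 of the lowered ones. Raised regions lay away from promoters more often than other shared regions did. Within 1 kb of an annotated transcription start 3.30% of 22640 shared regions were raised and 1.25% lowered, and farther away 8.31% and 2.77% of 63019. The median shift was -0.13 at promoters and 0.06 elsewhere.

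**Figure D2:**
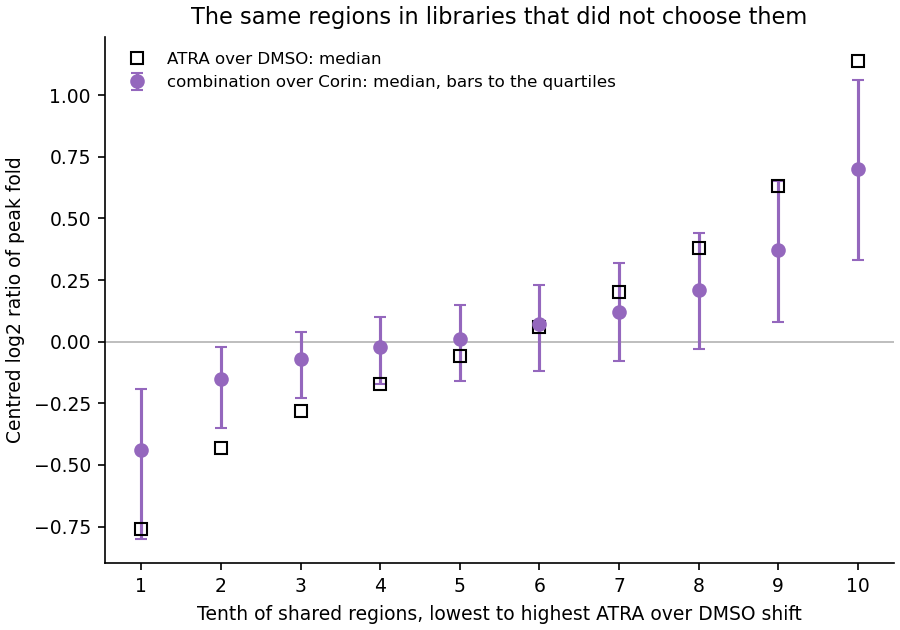
Shared regions in 10 equal classes of the centred log2 shift of ATRA over DMSO (open squares, medians). Filled circles give the centred log2 ratio of the combination over Corin (medians, bars to the quartiles) at those regions called in both of these lists. These were 6209 of 8566 regions in the lowest class and 4761 of 8566 in the highest. The median of the combination over Corin runs from -0.44 in the lowest class to 0.7 in the highest.

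The combination and Corin lists share no library with ATRA and DMSO, and they offer a second look at ATRA on a background of Corin. Of the 5981 raised regions, 84.7% were called with the combination and 53.5% with Corin. Among other shared regions these shares were 85.6% and 85.4%, so that only the Corin share of the raised regions was lower. In the 3086 raised regions called in both lists, the median centred log2 ratio of the combination over Corin was 0.79 (quartiles 0.39 and 1.15). It was above 0 in 91.6%. Of the 2028 lowered regions, 68.0% were called with the combination and 91.8% with Corin. Their median over 1370 regions called in both was -0.86 (-1.29 and -0.5), and 96.5% were below 0. The other shared regions had a median of 0.01. In the combination over Corin comparison as a whole, 3.05% of 74781 shared regions were raised and 3.15% lowered by the same limits.

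The strong regions moved together with few exceptions. All 549 strong raised regions were called with the combination, 446 also with Corin, and 442 of these were higher with the combination, with a median of 1.1. Being called with the combination was usual for strong regions. Of 23632 other strong shared regions, 23628 were called with the combination and 23608 with Corin. Of 271 strong lowered regions called in both lists, 264 were lower with the combination, with a median of -0.78. Across 66879 regions called in all 4 lists the shifts of both comparisons correlated with Pearson's r = 0.61 and Spearman's rho = 0.58 (0.56 at promoters, 0.63 elsewhere, and 0.71 on the pileup scale, Pearson). This r is over regions, which share the genome's base composition and the peak caller, and is no test.

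Gained and lost regions recurred less. Of the gained regions 27.5% (26.9 to 28) were called with the combination and 9.14% (8.79 to 9.49) with Corin. Of the lost regions 38.2% (37.7 to 38.8) were called with Corin and 20% (19.6 to 20.5) with the combination. Among the stronger 50% by −log10 p the recurrence was 39.1% for gained regions with the combination and 49.4% for lost regions with Corin.

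The DNA of lowered and raised regions differed. A match to AP-1 (TGANTCA) lay in the 200 bp summit window of 40.6% of lowered regions (38.5 to 42.7), 6.54% of raised regions (5.94 to 7.19) and 11.2% of all regions. In the strong lowered regions the share was 52.9%, at 148 of 280. The PU.1 motif (GAGGAAGT) showed the reverse order, with 16.7% of raised (15.8 to 17.7), 2.81% of lowered (2.18 to 3.62) and 7.50% of all regions. Lost regions held AP-1 in 13.5% and PU.1 in 2.00%, and gained ones AP-1 in 6.51% and PU.1 in 12.3%. The median distance of matches from the summit was 21.0 bp for PU.1 in raised and 25.5 bp for AP-1 in lowered regions. It was 41.0 bp for PU.1 in lowered and 53.5 bp for AP-1 in raised regions. Over all regions it was 24.0 bp for PU.1 and 33.5 bp for AP-1.

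**Figure D3:**
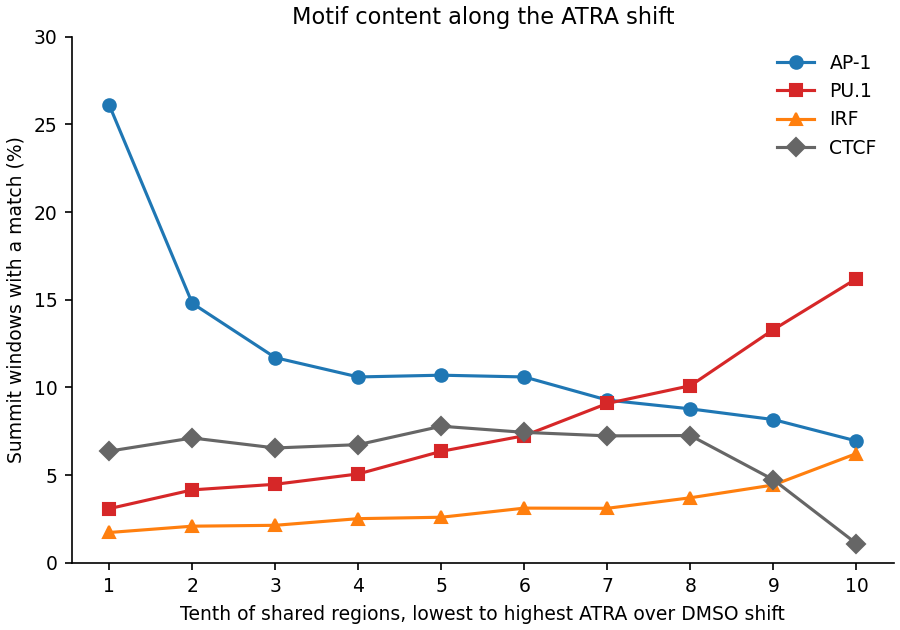
Share of 200 bp summit windows with a match (vertical, percent) for AP-1, PU.1, IRF and CTCF in 10 equal classes of shared regions by the shift of ATRA over DMSO (horizontal). AP-1 goes from 26.1% in the lowest class to 6.95% in the highest, and PU.1 from 3.09% to 16.2%.

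Along the 10 classes the PU.1 share was higher at each step, from 3.09% to 16.2%. Most of the AP-1 difference lay between the lowest class, at 26.1%, and the next, at 14.8%. Classes 4 to 6 were level, at 10.6% to 10.7%, and the highest class had 6.95%. Seen from the motif, shared regions with an AP-1 match had a median shift of -0.16 (10081 regions) and those with PU.1 one of 0.28 (6775 regions). Of these, 8634 and 5095 were called with both the combination and Corin, and their medians in the combination over Corin were -0.22 and 0.19. The 712 shared regions with both motifs lay between, at 0.09, and at -0.08 in the combination over Corin (605 regions). The 69515 with neither were at 0, and at 0.03 there (53755 regions).

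The IRF motif, bound by interferon regulatory factors, was found in 6.55% of raised, 1.48% of lowered and 3.39% of all regions. Shared regions that held it had a median shift of 0.21, and 14.4% of them were raised. A composite of the ETS and IRF half-sites, added after the values had been seen, was in 5.92% of raised and 1.87% of lowered regions, against 3.08% of all. The motif of CTCF, the insulator protein, was in 0.752% of raised, 4.39% of lowered and 6.70% of other shared regions. The GC-box of KLF and SP factors (GGGCGGG), common in promoters, was in 1.15% of raised, 4.54% of lowered and 11% of other shared regions.

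Other motifs separated the classes less. The C/EBP motif (TTGCNNAA) was in 19.5% of raised and 18.6% of lowered regions, against 15.5% of all. RUNX (TGTGGTT) was in 11.2% and 11.5%, against 8.88%. The motif AGATAA of GATA factors was in 11% of raised and 9.17% of lowered regions, against 8.33% of all, and the E-box CACGTG in 2.24% and 3.85%, against 3.71%.

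Base composition moved with the classes. The mean GC content of the summit windows was 45.4% in raised, 49.5% in lowered, 44.4% in gained and 53.8% in lost regions, against 50.4% in all. Within 3 classes of GC content, divided at 45.0% and 54.0%, lowered regions held AP-1 in 45.3%, 43.2% and 30.2%, from low to high GC, against 13%, 13.3% and 6.86% of all regions. Raised regions held PU.1 in 17.2%, 15.4% and 18.9%, against 9.75%, 8.19% and 4.31%. The order of both motifs was the same in each class. That of C/EBP and RUNX between raised and other shared regions was not. At low GC raised regions held C/EBP, RUNX and GATA in 23.6%, 12.3% and 14.6%, against 26.7%, 13.3% and 13.9% of other shared regions. At middle GC the shares were 16.4%, 10.5% and 7.87%, against 17.5%, 11.6% and 7.75%. At high GC they were 9.21%, 8.61% and 4.08%, against 6.28%, 4.82% and 2.18%. Over 1 kb from a start AP-1 was in 41.7% of lowered and PU.1 in 16.8% of raised regions.

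Strict repeats of AGNTCA, a narrow form of the receptors' own half-site, were rare under every class. A half-site that starts with another base is missed by this pattern. Direct repeats of AGNTCA with 5 bases between them were found in 124 regions (0.0877%) in all. These were 11 raised regions (0.184%), 3 lowered regions (0.148%), 48 other shared regions (0.0618%), 40 gained regions (0.152%) and 22 lost regions (0.0747%). With 2 bases between the half-sites the counts in raised, lowered and other shared regions were 17, 3 and 114 (0.284%, 0.148% and 0.147%), against 0.191% of all. With 1 base they were 10, 2 and 69 (0.167%, 0.0986% and 0.0889%), against 0.103%. Gained and lost regions held the 2-base repeat in 0.232% and 0.255%, and the 1-base repeat in 0.159% and 0.0747%. Of the 62 shared regions with the 5-base spacing, 17.7% were raised and the median shift was 0.23. A looser form of that repeat, a pair of GNTCA in the same direction with 6 free bases between, was added after the values had been seen and was in 0.886% of raised regions and 0.602% of all. The looser form of the 2-base repeat was in 0.886% of raised regions and 0.776% of all.

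The promoter of RARB, which encodes retinoic acid receptor beta and is a textbook target of its own receptor family, holds such a repeat. It is shown as 30 bases of the plus strand of hg38 with the looser repeat in capitals, and RARB also lies on the plus strand. The strict repeat does not match here, because a G comes before the first GTTCA. The middle of the repeat is 95 bp from the summit. It therefore runs past the edge of the 200 bp window and is not counted in the shares above.
RARB, shared, chr3:25428204-25428233: gggtaggGTTCACCGAAAGTTCActcgcat
The RARB promoter region, chosen for display after its values were seen, had a fold of 6.23 with DMSO, 12.3 with ATRA, 3.54 with Corin and 11.8 with the combination. Its centred shift was 0.65, below the limit for raised, and 1.64 in the combination over Corin. Its local background was 12.8 with DMSO and 50.1 with ATRA, in units of pileup, and its centred pileup shift was 2.78. At this promoter the fold differed less between the lists than the pileup did.

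Among the regions named by rank, the 10 gained ones by −log10 p held PU.1 in only 2 windows and AP-1 in 0. They were seen again in the combination list in 9 cases and in the Corin list in 2. The region nearest to MREG, the gene of melanoregulin, had a fold of 26.6 with ATRA and 12.8 with the combination (chr2:216057478-216058387). It was not called with DMSO or Corin. The region nearest to GPR26, an orphan receptor, had 27.5 and 6.83 (chr10:123604121-123604868), and the one nearest to AK3, a mitochondrial adenylate kinase, 11.3 and 5.05 (chr9:4760105-4760788). The looser repeat of the retinoid half-site was in the AK3 window. ITGA6, TMIE, TNFAIP2, MAP3K11, GRK3 and PDK1 were nearest to others of the 10. The PDK1 one was not called with the combination, and its local background was 103 times the most frequent background of the ATRA list. The backgrounds of the ITGA6, TNFAIP2 and MAP3K11 regions were 14.2, 18.4 and 18.8 times that value.

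The 10 lost regions by −log10 p held AP-1 in 9 windows, and 9 of them were called with Corin. Of these 9, 7 were also called with the combination, and each of the 7 was lower there than with Corin. The region nearest to DMAC1 had a fold of 13.8 with DMSO, 12.5 with Corin and 2.61 with the combination (chr9:7879418-7880451). The one nearest to ATP2C1, a Golgi calcium pump, had 18.0, 10.8 and 4.95 (chr3:130925317-130926097). COBL, LZTS1, MAD1L1, LCP2, STX1A and HERPUD2 were nearest to others with AP-1. The region without AP-1, nearest to SSBP3, was called with neither Corin nor the combination, and its background was 173 times the most frequent one of the DMSO list.

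Of the 10 strong shared regions with the largest shift, none held AP-1 and only 1 held PU.1. All were called with the combination and 2 with Corin. The region nearest to NCOA3, a p160 co-activator of nuclear receptors, had a fold of 2.90 with DMSO, 21.3 with ATRA and 15.7 with the combination (chr20:47531417-47532317, intron). The one nearest to HDC, histidine decarboxylase, had 3.32, 27.5 and 7.20 (chr15:50247769-50248575), and the one nearest to ANXA6, a calcium-dependent membrane-binding annexin, 2.54, 22.4 and 11.3 (chr5:151132999-151133673). The others lay nearest to POLB, ARPIN, SOX4, EFCAB8, FLRT2, CEP72 and RIIAD1. The RIIAD1 region had the largest shift, 3.16, with a fold of 2.31 with DMSO and 26.1 with ATRA, but was at 15.9 with Corin and 23.2 with the combination.

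The 10 strong shared regions with the smallest shift held AP-1 in 8 windows, and all were called with Corin. The region nearest to KALRN, a guanine nucleotide exchange factor, had a fold of 16.3 with DMSO, 3.76 with ATRA, 12.7 with Corin and 3.41 with the combination (chr3:124298714-124299627, exon). The one nearest to DUSP10, a phosphatase of JNK and p38, had 13.9, 3.47, 18.7 and 6.64 (chr1:221839687-221840379). The one nearest to ADAMTSL1 went from 23.3 to 5.14, had 18.2 with Corin and was not called with the combination. SGCE, MLXIPL, NSMAF, SUCLA2, CENPW and PPL were nearest to 6 others, all lower with the combination than with Corin. The region with the smallest shift, nearest to UNC13A, fell outside this pattern, with 13.2 and 1.62 in DMSO and ATRA but 11.5 and 12.9 in Corin and the combination.

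For the gene lists, regions within 10 kb of each gene were counted. Over all 20007 protein-coding genes 50.1% had a gained, 18.5% a raised, 6.30% a lowered and 51.0% a lost region, and 2.43% had a strong gained or raised and 1.02% a strong lost or lowered one. Of the 16 genes of retinoid metabolism 1 had a strong gained or raised region and 2 a strong lost or lowered one. In the list of 14 receptors and cofactors the numbers were 3 and 2, and in that of 20 retinoid target genes 5 and 0. The lists' shared regions as a whole stayed near the median of all, with median shifts of 0 for metabolism, 0.13 for receptors and cofactors and -0.09 for targets, against -0.01 over the shared regions near all coding genes.

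ALDH1A2, which makes retinoic acid from retinaldehyde, had 2 strong changed regions, both raised. The intronic one shown above had a fold of 5 with DMSO, 26.9 with ATRA and 8.17 with the combination, and was not called with Corin. The second, 3288 bp from a start of ALDH1A2, had 4.44, 14.4, 2.26 and 14.7 for DMSO, ATRA, Corin and the combination. ALDH1A1, a related dehydrogenase, had 3 gained regions and no lost one, and its promoter was called only with ATRA, at 7.12. CRABP1 and CRABP2, which carry retinoic acid in the cytoplasm, each had 2 lost regions and no gained one, and FABP5, another carrier, had 1 lost region.

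DHRS3 and DHRS9 encode retinoid dehydrogenases/reductases, and DHRS3 is a known retinoic acid target. For both the fold and the pileup must be read together. Of 4 DHRS3 promoter regions, the one 172 bp from a start had a fold of 8.59 with DMSO and 5.12 with ATRA and was lowered by rule, yet its −log10 p was 380 and 420, its local background 78.4 and 225, and its centred pileup shift 0.66. The others were not lowered: the strong region 232 bp from a start had folds of 10.9 and 12.5 and a pileup shift of 1.94, the one at 985 bp had 3.15 and 3.58, and the one at 515 bp was gained at 3.03. Another lowered DHRS3 region, 8233 bp from a start, had folds of 15.3 and 9.50, backgrounds of 32.3 and 97.1 and a pileup shift of 0.77. These lowered ones were 2 of the 6 strong lowered regions with a higher pileup. DHRS3 also had 7 gained regions and 2 lost ones. At 1 of the 4 DHRS9 promoter regions, 4 bp from a start, fold and pileup were both lower, with folds of 11.4 and 6.07 and a pileup shift of -0.50. In the other libraries this region had 15 with Corin and 10.6 with the combination. The other DHRS9 promoter regions were not called changed: the one 33 bp from a start had folds of 3.91 and 8.13, the one at 189 bp had 9.89 and 12.5, and the one at 658 bp 17.1 and 15.4.

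**Figure D4:**
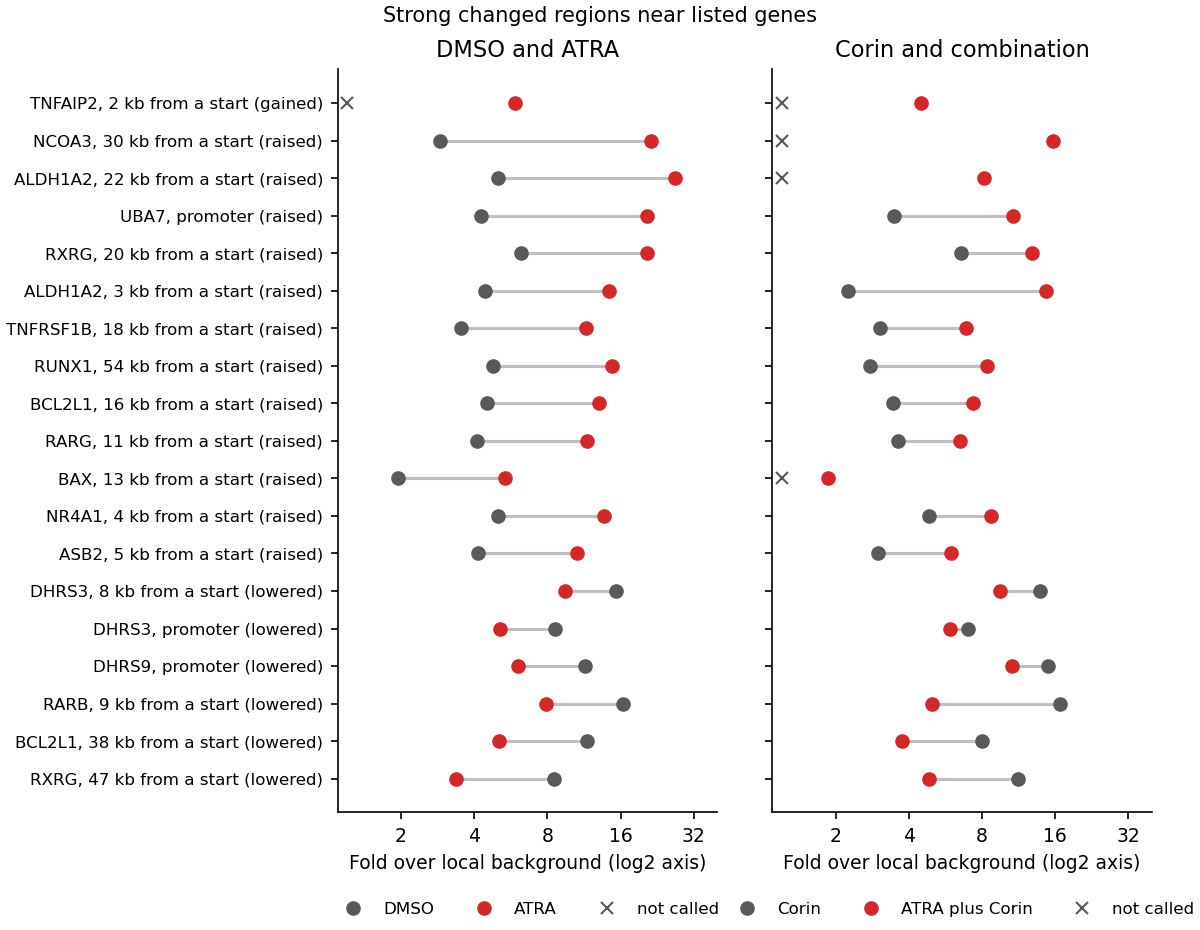
Fold over local background (horizontal, log2 axis) of strong regions that were gained, raised or lowered within 10 kb of a listed gene named in the text, for DMSO and ATRA on the left and Corin and the combination on the right, each row 1 region with its distance from the nearest start of the gene. Crosses mark lists in which the region was not called. In the right panel each region called with both lists lies on the same side as in the left panel.

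Among the receptors, RARG had a raised region 11163 bp from its start, with folds of 4.11, 11.6, 3.60 and 6.47 for DMSO, ATRA, Corin and the combination. RARB had, besides its promoter, a lowered region 9293 bp from another of its starts, with 16.3, 7.92, 16.8 and 4.98, along with 6 gained and 8 lost ones. RXRG, a heterodimer partner, had a raised region with 6.23, 20.6, 6.56 and 12.8 and a lowered one with 8.53, 3.36, 11.3 and 4.84. Of the p160 co-activators, NCOA3 had 7 gained, 2 raised and 0 lost or lowered, NCOA1 had 5 and 2 against 1, and NCOA2 had 6 and 3 against 3. Over all coding genes, 32.9% had more gained and raised than lost and lowered regions and 30.4% had fewer. CREBBP, an acetyltransferase, had 2 lost and 0 gained or raised regions. The promoter of RARA was at 8.87 with DMSO and 10.7 with ATRA.

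In the target list the raised region with the most contrast lay on the promoter of UBA7, the activating enzyme for the ubiquitin-like ISG15. Its fold was 4.28 with DMSO, 20.5 with ATRA, 3.49 with Corin and 10.7 with the combination (chr3:49812941-49814309, centred shift 1.93). TNFRSF1B, a receptor of TNF, had an intronic region at 3.55, 11.5, 3.04 and 6.89. ASB2, a subunit of a ubiquitin ligase, had one at 4.14, 10.6, 2.98 and 5.99. TNFAIP2 had the gained region of the ranked list, at 5.87 with ATRA and 4.48 with the combination, on a background 18.4 times the most frequent one with ATRA. The promoter of TNFAIP2 was called in every list, at 4.25 with DMSO, 4.9 with ATRA, 5.68 with Corin and 5.1 with the combination. These 4 changed regions were lower or not called in both groups without ATRA. Of the others, TGM2 (transglutaminase) had 5 gained and 1 lost region, CD38 had 5 and 2, and IRF1 had 3 and 0. PLAUR had 1 gained and 3 lost.

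Of 26 genes for transcription factors of the myeloid lineage, 2 had a strong raised region (RUNX1 and NR4A1) and none a strong lost or lowered one. The shares over all coding genes were 2.43% for strong gained or raised and 1.02% for strong lost or lowered regions. RUNX1 had 15 gained and 7 raised regions against 13 lost and 2 lowered, and its strong raised region was at 4.80 with DMSO, 14.7 with ATRA, 2.76 with Corin and 8.36 with the combination. The NR4A1 region, 4181 bp from a start, was at 5.01, 13.7, 4.85 and 8.69. ETV6 had 9 gained and 1 raised against 3 lost regions, and FLI1 had 3 and 4 against 3. The promoter of SPI1, the gene of PU.1, was at 8.22 with DMSO, 10.1 with ATRA, 8.49 with Corin and 10.8 with the combination, and of its 6 regions 5 were shared without a 2-fold shift and 1 was lost. The list's median shift was -0.1 over 228 shared regions.

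Of 18 genes for AP-1 and related factors none had a strong changed region. JUN had 2 and JUNB 8 regions, all shared and none moved 2-fold. FOSL1, FOSL2, JUND and BATF had 1 lost region each and no gained or raised one, and FOS had 1 gained, 1 raised and 1 lost. The raised FOS region, 3918 bp from its start, was at 3.33 with DMSO and 9.04 with ATRA, and at 2.40 and 2.90 with Corin and the combination. BACH1 and BACH2, repressors of the same superfamily, had 10 gained and 4 raised against 6, and 14 and 2 against 12. BATF2 had a raised region 63 bp from its start, at 3.84, 12.2, 3.11 and 11.2 in the order DMSO, ATRA, Corin and combination, and ATF2 had 3 gained against 8 lost regions.

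Of the 32 effector and surface genes of myeloid cells, 1 had a strong change, a count near the shares over all coding genes (2.43% strong gained or raised, 1.02% strong lost or lowered). FPR1, a formyl peptide receptor, had 6 gained regions and 1 lowered, CLEC12A had 6 gained and 1 raised against 3 lost, and ITGB2, the beta-2 integrin, 3 gained and 0 lost. CD36 had 6 changed regions up and 8 down, ITGAL 1 and 3, and MPO 0 and 2. The promoter of CSF1R, the receptor of macrophage colony-stimulating factor, was chosen after its values were seen. It was raised, with 2.69 and 9.40 for DMSO and ATRA and 1.91 and 5.18 for Corin and the combination.

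Of 22 interferon-stimulated genes none had a strong changed region. With 2.43% of all coding genes near a strong gained or raised and 1.02% near a strong lost or lowered one, that count says little. Of their 93 regions 7 were raised (7.53%) and 1 lowered (1.08%), against 4.19% and 1.24% of the regions near all coding genes. Gained were 16.1% of their regions, against 18.4% near all coding genes, and lost 11.8%, against 20%. IFIT3 had 2 gained and 1 raised region, MX2 had 3 gained, and IFIH1, a sensor of double-stranded RNA, 1 gained and 1 raised, all with none lost or lowered. IRF7 had 2 lost regions and no gained one, MX1 had 1 lost, and ISG20 had 1 gained and 2 lost.

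Of 20 cell cycle and survival genes, 2 had a strong raised region and 1 of these also a strong lowered one. Strong gained or raised regions lay near 2.43% of all coding genes, and strong lost or lowered ones near 1.02%. BCL2L1, the gene of the survival protein BCL-XL, had a raised region 15668 bp from its start at 4.51, 13.1, 3.45 and 7.37 for DMSO, ATRA, Corin and the combination. Its lowered region, 37654 bp from its start, was at 11.7, 5.06, 7.98 and 3.75. A region near BAX, a pro-apoptotic partner, was at 1.94 with DMSO, 5.35 with ATRA and 1.86 with the combination, on a background of 337 and 289 in DMSO and ATRA. FAS, the death receptor, had 3 gained and 2 raised regions and none lost or lowered, CCND2 had 3 and 1 against 1, and CCND3 5 and 1 against 3. CDK6 had 1 gained and 3 raised against 9 lost regions, and CCNE1 and E2F1 each had 2 lost or lowered and none gained or raised. A lowered region on a promoter of BCL2, named after its values were seen, was at 11.3, 2.77, 20.6 and 8.56.

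Genes were also ranked by the number of gained and raised minus lost and lowered regions nearest to their start, within 100 kb. PALLD, an actin-binding scaffold, led with 23 gained and 4 raised against 2 lost regions, and 12 of its 23 gained regions were called with the combination and 3 with Corin. TENM4 had 18 and 7 against 4, PHACTR1, an actin and phosphatase regulator, 20 and 2 against 2, and ELMO1, part of the engulfment machinery, 17 and 1 against 3. The others of the first 10 were NFIA, GRIP1, MAST4, PDE4D, HERC1 and NREP. With the combination, 7 of 18 gained regions of TENM4 were called, 8 of 17 of ELMO1, 4 of 20 of PHACTR1 and 0 of 16 of NFIA, the lowest count of the 10. At the lower end stood FGF14 with 30 lost regions and none gained, CLYBL with 34 lost against 5 gained and 2 raised, SORCS2, ATP11A, KLHL29, RAPGEF4, NALCN, MAD1L1, IQSEC1 and HS6ST1. Of the lost regions, 13 of 30 of FGF14 and 16 of 34 of CLYBL were called with the combination, and 12 and 18 with Corin. The lost regions of these 10 genes were faint, with median folds between 1.97 and 2.58.

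**Figure D5:**
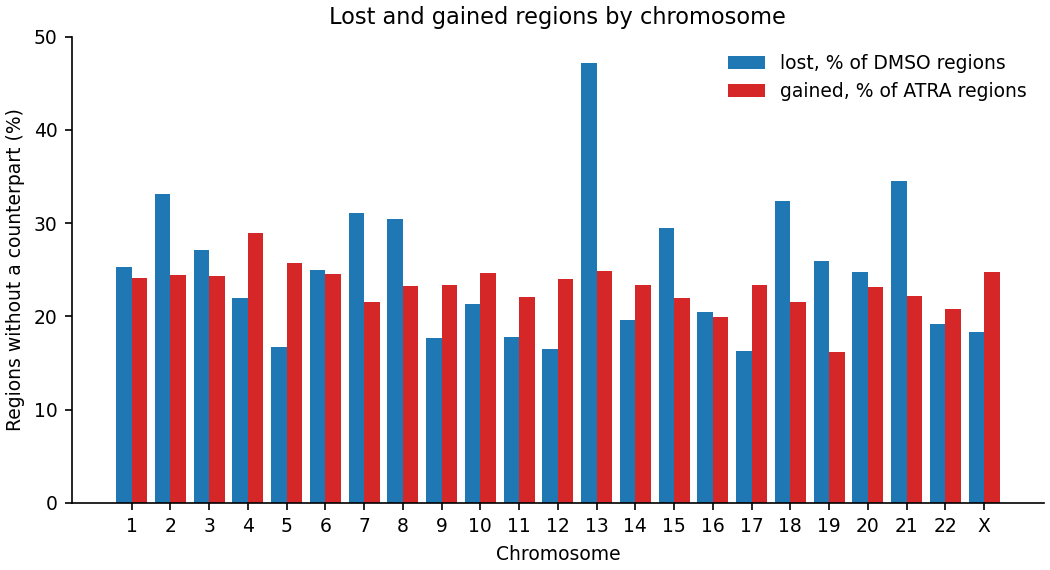
Lost regions as a share of the DMSO regions and gained regions as a share of the ATRA regions (vertical, percent) on each chromosome (horizontal; Y held too few regions). Chromosome 13 stands apart with 47.2% lost, while its gained share, 24.9%, is among those of the other chromosomes.

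Of these 10 genes FGF14, CLYBL, ATP11A and NALCN lie on chromosome 13. On that chromosome 2317 of 4905 DMSO regions were lost (47.2%), against 16.3% to 34.5% on each other chromosome. The lost regions of chromosome 13 had a median −log10 p of 6.83 and a median fold of 2.42. Of these, 32.4% were called with the combination, against 14.3% to 26.2% on each other chromosome, and 42.3% with Corin, against 35.1% to 41.6%. Its shared regions moved much as elsewhere, with 7.73% raised and 2.86% lowered. Without chromosome 13 the lost regions were 27131 of 110202 (24.6%). The part of weak calls in this was not tested.

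The lists' own limits bear on gained and lost regions. The DMSO peak names run to exactly 300000 and the lowest −log10 p of its peaks was 2.79, against 2.0 and names to 255773 for ATRA. Whether the DMSO list was limited to that number of peaks is not given in the sources used here. With a common floor of −log10 p for both lists, added after seeing the data, 26296 regions were gained and 29471 lost. The most frequent background was 12.8 for DMSO and 9.12 for ATRA in units of pileup, and the read depth is unknown. Promoters of monocytic marker genes were called for 10 of 12 genes in each list, without MPO and FCGR1A. Of 8 T and NK cell markers 4 were called with DMSO and 5 with ATRA, without CD3E, CD3D and TRAT1 in either. Of 6 B cell markers 4 and 4 were called, of 8 erythroid and megakaryocyte markers 3 and 3, of 7 epithelial and hepatocyte markers 3 and 2, and of 8 fibroblast and endothelial markers 5 and 4. The share of all coding genes with a called promoter is not given here, so these counts do not single out a cell type.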

How the data were processed

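ATAC-seq peaks of U-937 cells were read from deposited narrowPeak lists, 1 for each group, that the authors made over its 2 samples together. The submitters' processing notes name cutadapt, Bowtie2, SAMtools, Picard, MACS2 and hg38, with no versions. Column 7 of the deposited lists is a ratio, how many fold the summit pileup exceeded the background around it. Column 8 holds −log10 p in the deposited lists, and the q score deposited beside it is also −log10. No other per-sample columns were left out (0). The depth of the samples is unknown.

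Peaks overlapping by at least 1 bp were merged, and a region took the highest fold of its peaks. Ratios of fold were centred on the median of shared regions. Pileup and background were solved from p and fold (Poisson, adding 1 to each), which gave whole pileups within 0.05 for 99.97% of DMSO and 99.98% of ATRA peaks. Strong means the strongest 20% by −log10 p in the list with the higher fold. Wilson intervals (95%) cover counting error over regions only. Annotation was GENCODE release 44 on hg38. Motifs were searched on both strands of hg38 in 200 bp windows at the summit of the stronger list, 15 in all, of which 3 were added after seeing the values. The looser repeat contains the strict one, and the ETS and IRF composite can share bases with the IRF motif. Python 3.11.15, pandas 2.3.3 and numpy 2.4.6 were used, and the method was tested on simulated data.

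The regions named are the 10 gained and 10 lost ones with the highest −log10 p, and the 10 strong shared regions with the largest and the 10 with the smallest shift. The genes named are the 10 with the largest and 10 with the smallest balance of changed regions, and, of 8 gene lists, members within 10 kb of a strong changed region and the 3 with the highest and lowest balance. Some items that these rules select are not reported here. The members and lists were chosen with earlier results of these data known. Marker lists numbered 6. Alternatives were stricter peaks, equal list lengths, other merging, overlap, centring and scale, and, added after seeing the data, a common floor of p, centring by strength, and leaving out peaks without whole pileups or chromosome 13.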

Additional observations from a re-analysis of the deposited data

How the results depend on the processing

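Each group was a single pooled list, so no sample could be left out and nothing could be tested against the spread between samples. No paired analysis was possible because the lists combine the 2 samples of a group. Of 76 alternative values 51 stayed within 1.5 times the count or median, or inside the interval of the share, and 25 moved. Only the median ratios of the combination over Corin have a sign that could reverse, and 0 of them did. With a −log10 q of at least 5 lost regions numbered 17910. Without regions on a high background raised regions numbered 3523 of 42499 shared ones (8.29%). Without centring 12046 were raised and 749 lowered, with a 1.5-fold limit 14209 and 7559, and on the pileup scale 5571 were lowered. With −log10 q of at least 5, 26.8% of gained regions were called with the combination and 36.5% of lost ones with Corin. Among the stronger 50% these shares were 39.1% and 49.4%. With 100 bp windows AP-1 was in 31.0% of lowered and 2.89% of raised regions, and PU.1 in 14.2% of raised and 1.73% of lowered ones. Within classes of GC content AP-1 was in 45.3%, 43.2% and 30.2% of lowered regions (low, middle, high) and in 7.59% and 4.98% of raised ones (middle, high). PU.1 was in 15.4% and 18.9% of raised regions (middle, high) and in 1.85%, 3.93% and 2.14% of lowered ones (low, middle, high). The causes of these moves were not tested. The median ratios of the combination over Corin stayed between 0.75 and 0.89 at raised and between -1.11 and -0.76 at lowered regions.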
